A study of Homo sapiens with 6 samples.

Results

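The 10 genes described here encode the enzymes that make serine from a glycolytic intermediate and pass its carbon into folate and sulfur metabolism: PHGDH, PSAT1, PSPH, SHMT1, SHMT2, MTHFD1, MTHFD2, MTHFD1L, ALDH1L2 and CBS. They were taken by symbol, 1 Ensembl gene feature each, from the 60179 gene features of the deposited table, and not by any measured value. All 10 passed the filter on low counts, which left 17449 features for testing. HEK293T, a human embryonic kidney line, was co-transfected in every group with the plasmids pShP2419 and pStH1169, from which the cells make human TET2 in a form that light activates; TET2 oxidises 5-methylcytosine in DNA. Every group was also grown with 4,5-dimethoxy-2-nitrobenzyl-L-serine, a serine whose side chain is blocked until light removes the block, at 0.1 mM during 48 h, and then washed. The caged 0 h group received no light; the uncaged 4 h and uncaged 8 h groups stood for 3 min on a 365 nm transilluminator and were then returned to growth medium for 4 h or 8 h. Each of the 3 groups has 2 libraries of mRNA, from 500000 sorted transfected cells.

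Serine is made in the cytosol from 3-phosphoglycerate in the order PHGDH, PSAT1, PSPH, or is taken up by transporters. Serine hydroxymethyltransferase then moves a carbon from serine to tetrahydrofolate and leaves glycine, SHMT1 in the cytosol and SHMT2 in mitochondria. The MTHFD enzymes carry that carbon between folate forms for the synthesis of purines, thymidylate and methionine. ALDH1L2 is the mitochondrial formyltetrahydrofolate dehydrogenase. CBS joins serine to homocysteine and so opens the route to cysteine. In proliferating cells the mitochondrial branch, with MTHFD2, supplies much of the formate used in the cytosol, and 7 of the 10 genes, namely PHGDH, PSAT1, PSPH, SHMT2, MTHFD2, MTHFD1L and ALDH1L2, are widely listed as targets of ATF4, the transcription factor of the amino acid response. The genes were chosen because the cells were loaded with a caged serine and then washed.

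The total was 17490010 to 20025955 estimated counts a library, of which plasmid sequences took 11.5% to 15.5%, the lowest shares being in the caged libraries. Levels are in CPM, counts scaled to a common total over gene features, and were adjusted between libraries by the trimmed mean of M values (TMM). The TET2 gene, whose estimate may include reads of the transfected copy, ran from 3260 to 4673 CPM with every uncaged library above both caged ones. A plasmid sequence named TET2_amber was estimated as a separate feature, at 559490 to 789665 counts a library against 59417 to 67578 for the TET2 gene. Of 10 HEK293T markers 9 stood above 1 CPM in every group, PAX8 being at or near 0, and their summed level was 701 to 744 CPM in the caged libraries, 656 to 659 CPM at 4 h and 654 to 670 CPM at 8 h. Of 11 markers of other cell types CD3E and INS were at 0 in every library, and the sum, mostly COL1A1, was 22.3 to 26.7 CPM across the libraries. The part of the plasmid share and of the HEK293T markers in the results was not tested, except that with plasmid sequences kept in the library size MTHFD2 was called at 4 h as well (0.29, adjusted p = 0.0280). Whether the replicates came from separate cultures is not stated in the labels, and the p-values cover no more than the variation among these libraries, possibly technical. None of the libraries analysed here had light without the plasmids, or the plasmids and the elapsed time without light, so enzyme activation, light, washing, fresh medium and time after transfection cannot be told apart, and in bulk RNA fewer cells with a transcript and less of it per cell cannot be told apart either.

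At 4 h after light 1 of the 10 enzyme genes rose and none fell. The gene was MTHFD2, the mitochondrial dehydrogenase and cyclohydrolase, which rose by 0.29 ± 0.061 (log2 fold change ± SE, adjusted p = 0.0237; all adjusted p-values are from edgeR's quasi-likelihood test with Benjamini-Hochberg adjustment over all tested features, called at 0.05). Among all tested features 9.72% were called at 4 h, 6.16% higher and 3.56% lower, so 1 of 10 higher is near the share among all features. At 8 h none of the 10 was called in either direction, with CBS counted apart from its near copy CBSL (their sum is given below). Among all tested features 28.1% were called at 8 h, 14.9% higher and 13.2% lower. Between 4 h and 8 h none was called, against 3.27% of all features, 2.05% higher and 1.21% lower. At an unadjusted p under 0.05 the 3 comparisons held 2, 3 and 4 of the 10 genes, and 4678, 7166 and 4032 of all 17449 tested features. DESeq2 called 2 genes at 4 h, none at 8 h and 1 between the times. Over all features DESeq2 called 868 higher and 257 lower at 4 h, 1947 and 1116 at 8 h, and 481 and 148 between the times.

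**Figure D1:**
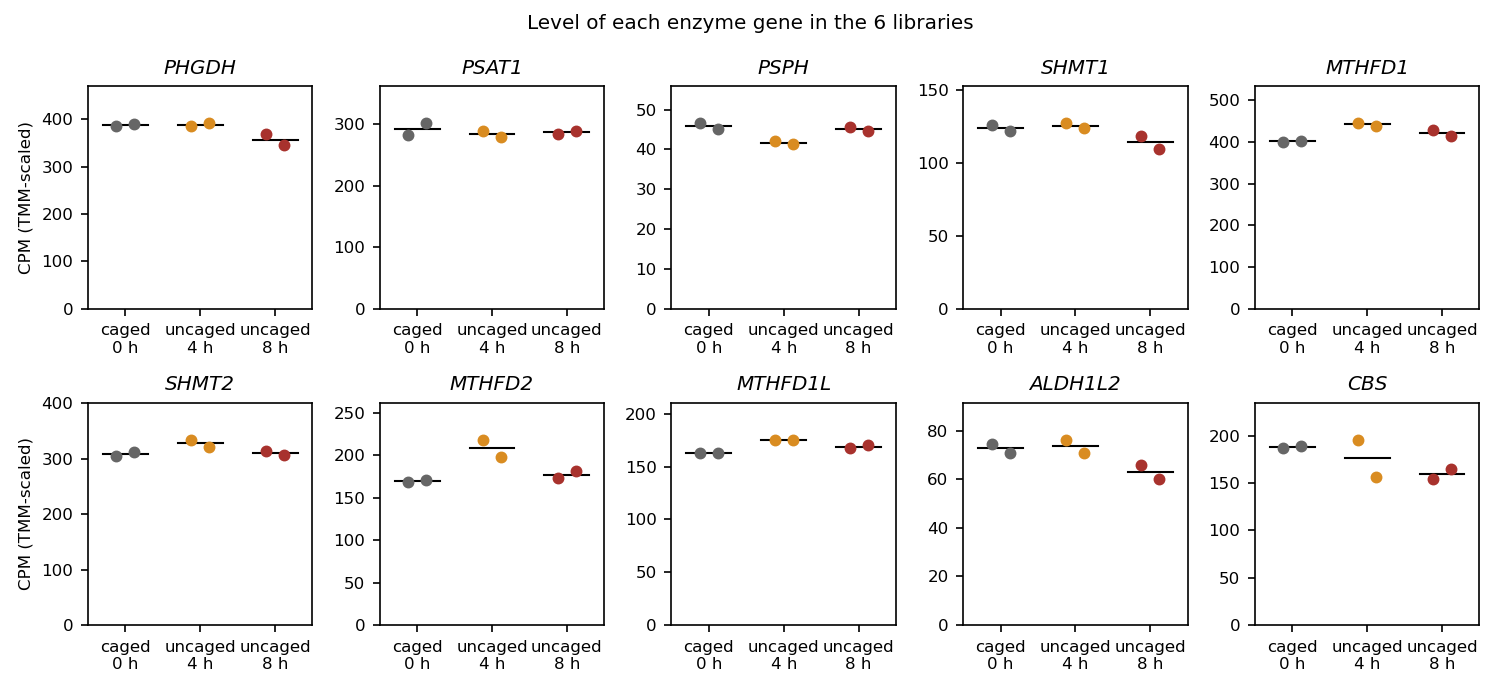
Level of each of the 10 enzyme genes in CPM (TMM-scaled, vertical axes starting at 0) in the 6 libraries; points are libraries and bars the mean of the 2 libraries of a group. MTHFD2 stands at 218 and 198 CPM at 4 h against 168 and 171 CPM in the caged libraries, while most other genes move by little against their own level.

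To set the genes in order of abundance, CPM was divided by the length in kilobases of the principal GENCODE 29 transcript. In the caged libraries PHGDH led at 150 ± 1.1 CPM per kilobase (mean ± SD, n = 2), followed by PSAT1 at 134 ± 6.2, MTHFD1 at 128 ± 0.39 and SHMT2 at 122 ± 1.7. The next were CBS at 72.2 ± 0.80, SHMT1 at 50.4 ± 1.2, MTHFD1L at 45.2 ± 0.16 and MTHFD2 at 38.1 ± 0.37. PSPH at 21.1 ± 0.47 and ALDH1L2 at 9.64 ± 0.33 CPM per kilobase were the lowest. The PSAT1 and MTHFD1 levels lie within the SD of PSAT1 of each other, and each other neighbouring pair is further apart than the larger SD of the pair. The place of CBS rests on how the estimates divide reads between it and its near copy CBSL, whose sum was 384 and 372 CPM in the caged libraries against 187 and 189 CPM for CBS alone, so that it would stand higher with both. The place of MTHFD2 rests on a principal transcript of 4456 bases, the longest but ALDH1L2's 7547 bases, and its level per kilobase would be higher with a shorter one. By CPM alone, all 10 lay between percentile 67.6 of the tested features, for PSPH, and percentile 98.5, for MTHFD1.

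The serine synthesis genes showed no call at either time. PHGDH (ENSG00000092621.12, GRCh38 chr1:119648411-119744226, plus strand, 15 exons), the dehydrogenase of the first and committed step, stood at 386 and 390 CPM in the caged libraries, 386 and 392 CPM at 4 h, and 370 and 345 CPM at 8 h. The 4 h values lay around the caged ones and both 8 h values below them. Its log2 fold change was 0.0017 ± 0.049 at 4 h (95% confidence interval -0.11 to 0.11, adjusted p = 0.987) and -0.12 ± 0.049 at 8 h (-0.23 to -0.0079, adjusted p = 0.101).

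PSAT1 (ENSG00000135069.14, chr9:78297143-78330093, plus strand, 9 exons), the aminotransferase of the middle step, stood at 283 and 302 CPM in the caged libraries, 288 and 279 CPM at 4 h, and 285 and 288 CPM at 8 h. The groups overlapped in every comparison, and the replicate gap in the caged group was wider than the gap between any groups' means. Its differences were -0.044 ± 0.052 at 4 h and -0.028 ± 0.052 at 8 h (adjusted p = 0.634 and 0.711). PSPH (ENSG00000146733.14, chr7:56011051-56051604, minus strand, 8 exons), the phosphatase that releases free serine, stood at 46.6 and 45.2 CPM in the caged libraries, 42.0 and 41.3 CPM at 4 h, and 45.7 and 44.5 CPM at 8 h. Both 4 h libraries were below all others, but the difference of -0.14 ± 0.065 at 4 h did not pass (adjusted p = 0.215), and at 8 h it was -0.025 ± 0.065 (adjusted p = 0.800). The processed copies PSAT1P1 and PSAT1P3 and the copy PSPHP1, with which these genes share sequence, never exceeded 0.218 CPM.

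The pair of cytosolic folate enzymes was not called at either time. SHMT1 (ENSG00000176974.20, chr17:18327860-18363563, minus strand, 12 exons), the cytosolic serine hydroxymethyltransferase, stood at 126 and 122 CPM in the caged libraries, 127 and 124 CPM at 4 h, and 118 and 110 CPM at 8 h. Both 8 h libraries were the lowest of the 6. The difference was 0.018 ± 0.060 at 4 h (adjusted p = 0.885) and -0.12 ± 0.061 at 8 h (adjusted p = 0.165). SMCR8, whose transcripts overlap 2.27% of the 31-base words of SHMT1 on the opposite strand, rose by 0.79 ± 0.063 at 4 h and 0.78 ± 0.064 at 8 h (adjusted p = 0.0010 and 0.00031). Its part in the SHMT1 values was not tested.

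MTHFD1 (ENSG00000100714.17, chr14:64388031-64463457, plus strand, 28 exons) is the cytosolic enzyme with 3 activities that interconverts formyl-, methenyl- and methylene-tetrahydrofolate. It stood at 401 and 402 CPM in the caged libraries, 445 and 439 CPM at 4 h, and 428 and 415 CPM at 8 h. Every uncaged library was above both caged ones, and both 4 h libraries were above both 8 h ones. The 4 h difference of 0.14 ± 0.043 had an adjusted p of 0.0804. It was called under DESeq2 (adjusted p = 0.0444) and with length and GC offsets (adjusted p = 0.0363), and was -0.0097 under cyclic loess offsets, which remove trends against abundance. The 8 h difference was 0.070 ± 0.043 (adjusted p = 0.253).

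Among the mitochondrial folate enzymes MTHFD2 alone was called. MTHFD2 (ENSG00000065911.12, chr2:74198562-74217565, plus strand, 8 exons) stood at 168 and 171 CPM in the caged libraries, 218 and 198 CPM at 4 h, and 173 and 181 CPM at 8 h. Both 4 h libraries were above all 4 others, and both 8 h libraries lay just above the caged ones. The rise at 4 h was 1.23-fold, with a 95% confidence interval of 0.15 to 0.43 on the log2 scale. At 8 h the difference from caged was 0.061 ± 0.062 (adjusted p = 0.489), and from 4 h to 8 h it was -0.23 ± 0.062 (adjusted p = 0.0756). The 4 h call was lost without any 1 of the 4 libraries compared (0.22 to 0.35, adjusted p = 0.0633 to 0.138), under cyclic loess offsets (0.19, adjusted p = 0.101) and with no filter on low counts (0.26, adjusted p = 0.0795).

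Of the 31-base words in MTHFD2 transcripts 25.7% also occur, on the opposite strand, in transcripts of SLC4A5, and the sources used here do not say whether the counting used strand. SLC4A5 stood at 4.41 to 6.36 CPM over the 6 libraries, with a 4 h difference of 0.015 ± 0.21 (adjusted p = 0.973). The processed copies of MTHFD2 were at 0.207 CPM or less in every library. MTHFD2L, the related mitochondrial enzyme encoded elsewhere, stood at 12.9 to 14.6 CPM and differed by -0.012 ± 0.11 at 4 h (adjusted p = 0.957).

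SHMT2 (ENSG00000182199.11, chr12:57229327-57234935, plus strand, 12 exons), the mitochondrial serine hydroxymethyltransferase, stood at 305 and 312 CPM in the caged libraries, 334 and 320 CPM at 4 h, and 314 and 306 CPM at 8 h. Both 4 h libraries were above the rest, by 0.086 ± 0.048 over caged (adjusted p = 0.292), and the 8 h libraries overlapped the caged ones (0.0082 ± 0.048, adjusted p = 0.914). MTHFD1L (ENSG00000120254.15, chr6:150865549-151101887, plus strand, 28 exons), which releases formate in mitochondria, stood at 163 and 163 CPM in the caged libraries, 176 and 175 CPM at 4 h, and 168 and 170 CPM at 8 h. Its 3 groups did not overlap, in the order caged, 8 h, 4 h, and its differences were 0.11 ± 0.049 at 4 h (adjusted p = 0.212) and 0.052 ± 0.049 at 8 h (adjusted p = 0.465).

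ALDH1L2 (ENSG00000136010.14, chr12:105019784-105084577, minus strand, 23 exons), the mitochondrial formyltetrahydrofolate dehydrogenase, stood at 74.5 and 71.0 CPM in the caged libraries, 76.3 and 70.9 CPM at 4 h, and 65.7 and 60.3 CPM at 8 h. The 4 h libraries spanned the caged ones and both 8 h libraries were below all others. The 8 h difference of -0.21 ± 0.073 had an adjusted p of 0.0645. With library totals alone it was -0.31 (adjusted p = 0.0144), with cyclic loess offsets -0.24 (adjusted p = 0.0473) and with the replicate number as a block -0.21 (adjusted p = 0.0494), each of them called. It was not called with length and GC offsets, where it was -0.13 (adjusted p = 0.240), with DESeq2 (-0.21, adjusted p = 0.131), or without any 1 library (-0.28 to -0.15, adjusted p = 0.0690 to 0.266).

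**Figure D2:**
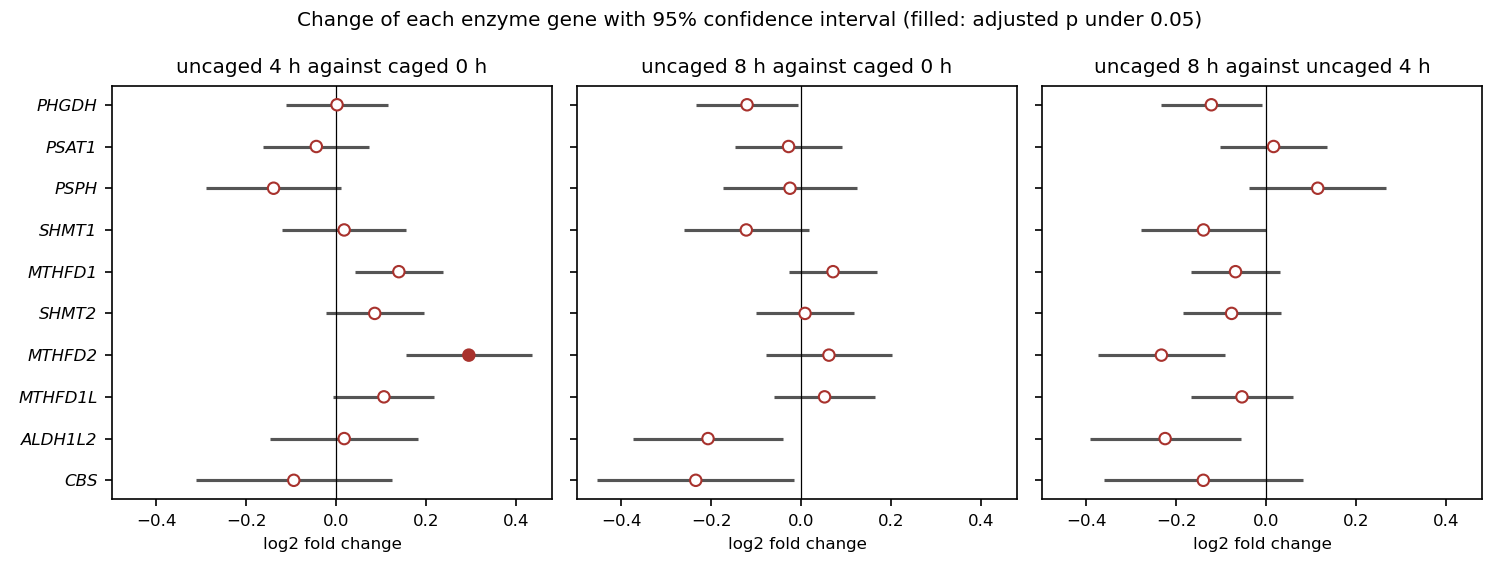
Log2 fold change (horizontal axis) of each enzyme gene in the 3 comparisons, with points for the estimate and lines for the 95% confidence interval; filled points have an adjusted p under 0.05. MTHFD2 at 4 h (0.29) is the single filled point, and at 8 h the intervals of PHGDH, ALDH1L2 and CBS lie below 0 without passing the adjusted threshold.

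CBS (ENSG00000160200.17, chr21:43053191-43076943, minus strand, 17 exons), the cystathionine beta-synthase, has a near copy in the GRCh38 annotation, CBSL (ENSG00000274276.4, chr21:6444869-6468040). In GENCODE 29 every one of 16 pairs of their transcripts that share a coding length of 1653 bases differs in that coding sequence by the single substitution C699T, CBS first, counted from 1 at the first base of the start codon. The stretch around it is shown because reads from the coding part that miss this base cannot tell the copies apart, and the capital marks the base that differs.
CBS: cccctggctcactaCgacaccaccgctga
CBSL: cccctggctcactaTgacaccaccgctga
Of the 31-base words in CBS transcripts 55.9% also occur in CBSL, and of those in CBSL transcripts 93.8% also occur in CBS. CBSL thus has little sequence of its own here, and the deposited estimates divide the shared reads between the 2 features.

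CBS alone stood at 187 and 189 CPM in the caged libraries, 196 and 156 CPM at 4 h, and 154 and 165 CPM at 8 h. CBSL stood at 198 and 182 CPM in the caged libraries, 200 and 229 CPM at 4 h, and 195 and 155 CPM at 8 h. The 4 h replicates differed in opposite directions in the 2 features, and the CBS share of their sum ran from 40.5% in the second 4 h library to 51.5% in the second 8 h library. Neither was called: CBS differed by -0.094 ± 0.095 at 4 h (adjusted p = 0.578) and -0.23 ± 0.096 at 8 h (adjusted p = 0.101), and CBSL by 0.17 ± 0.11 and -0.12 ± 0.11 (adjusted p = 0.344 and 0.450). Among the alternatives other than leaving out a single library, CBS alone was called lower at 8 h under library totals, under cyclic loess offsets and with only the 4 compared libraries. With a single library left out, its 8 h difference ran from -0.29 to -0.19.

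Summed over both copies, which was done after the data were seen, the level was 384 and 372 CPM in the caged libraries, 395 and 386 CPM at 4 h, and 349 and 320 CPM at 8 h. Both 8 h libraries were below all others, and the replicates lay closer to each other at 4 h than in either copy alone. The sum fell by 0.17 on the log2 scale at 8 h (SE 0.054, adjusted p = 0.0431) and differed by 0.047 ± 0.054 at 4 h (adjusted p = 0.626) and by -0.22 ± 0.054 between 4 h and 8 h (adjusted p = 0.0643). The 8 h call is close to the threshold: it was lost under 5 of the 6 fits that leave out 1 library, over which the difference ran from -0.24 to -0.12 and the adjusted p from 0.0325 to 0.209.

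**Figure D3:**
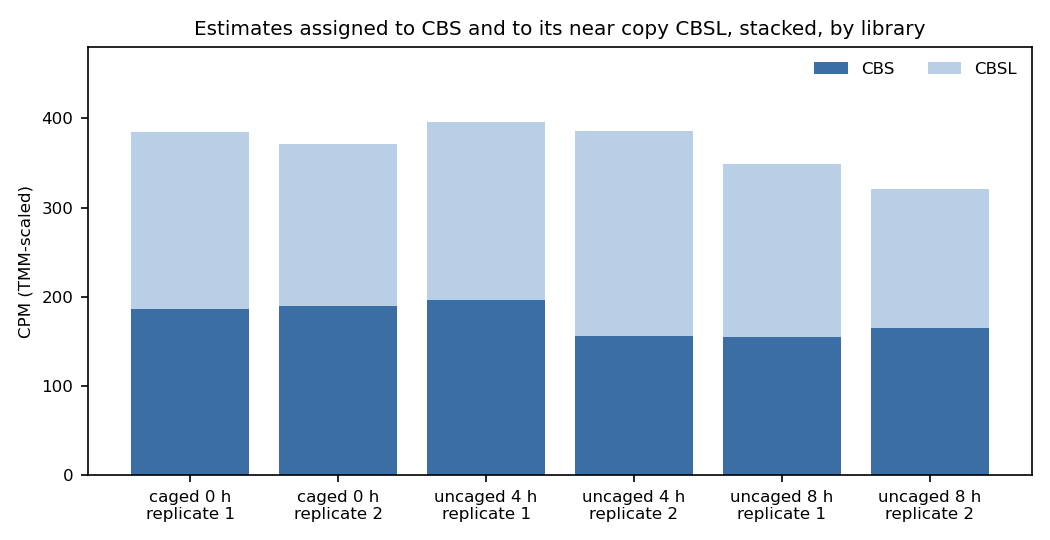
Estimates assigned to CBS (dark) and CBSL (light) in CPM, stacked by library on an axis from 0. The division between the copies shifts from library to library, from 40.5% to 51.5% CBS, while their sum is lowest in the 8 h libraries, 349 and 320 CPM.

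Ratios within a library do not depend on the scaling between libraries, and were given no test because 2 libraries against 2 cannot reach 0.05 in an exact permutation test. The log2 ratio of MTHFD2 to MTHFD1, both CPM, was -1.25 and -1.24 before light, was -1.03 and -1.15 in the 4 h libraries, and was -1.31 and -1.20 in the 8 h libraries. The 4 h libraries were the highest, and the mean ratio was 0.15 higher at 4 h than in the caged group, a difference that was 0.093 without the first 4 h library and 0.21 without the second. The ratio of SHMT2 to SHMT1 was 1.27 and 1.35 before light, 1.39 and 1.37 in the 4 h libraries, and 1.41 and 1.48 in the 8 h libraries. Every uncaged library was above both caged ones, with mean differences of 0.068 at 4 h and 0.13 at 8 h; the 4 h difference was 0.028 without the first caged library and 0.11 without the second. The ratio of MTHFD1L to MTHFD1 stayed between -1.35 and -1.29 in all 6 libraries. The ratio of PSPH to PHGDH was lowest at 4 h, at -3.20 and -3.24, against -3.05 and -3.11 in the caged libraries and -3.02 and -2.95 at 8 h.

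With TMM scaling the median log2 fold change of the 10 genes was 0.018 at 4 h and -0.027 at 8 h, where the median over all tested features was -0.0061 and -0.0046. The median size of the change, sign aside, was 0.090 and 0.066 for the 10 genes and 0.18 and 0.25 for all tested features, which include many of low count and wide error. Between 4 h and 8 h the median was -0.10 against -0.0034, with 8 of the 10 genes negative. Groups of libraries did not overlap for 5 of 10 genes at 4 h, 7 of 10 at 8 h and 8 of 10 between the times, and for 56.9%, 66.2% and 53.3% of all tested features.

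The scaling set how the 8 h values read. With library totals in place of TMM the median over all tested features at 8 h moved to -0.11, and PHGDH, SHMT1, ALDH1L2 and CBS were called lower at 8 h. Among all 17449 tested features 3899 were then called lower and 1595 higher. The median of the 10 genes was then -0.13. With cyclic loess offsets none of the 10 was called at 4 h and 7 were called lower at 8 h. The 7 were PHGDH (-0.35), PSAT1 (-0.23), SHMT1 (-0.23), MTHFD1 (-0.17), SHMT2 (-0.21), ALDH1L2 (-0.24) and CBS (-0.39). Among all tested features 1791 were then called lower and 2106 higher at 8 h. The median of the 10 genes at 8 h was then -0.22, while that of all tested features was -0.0059. Length and GC offsets, DESeq2 and limma-voom called none of the 10 at 8 h. The signs at 8 h of MTHFD1, SHMT2, MTHFD2 and MTHFD1L, positive with TMM, were negative under both library totals and cyclic loess offsets.

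**Figure D4:**
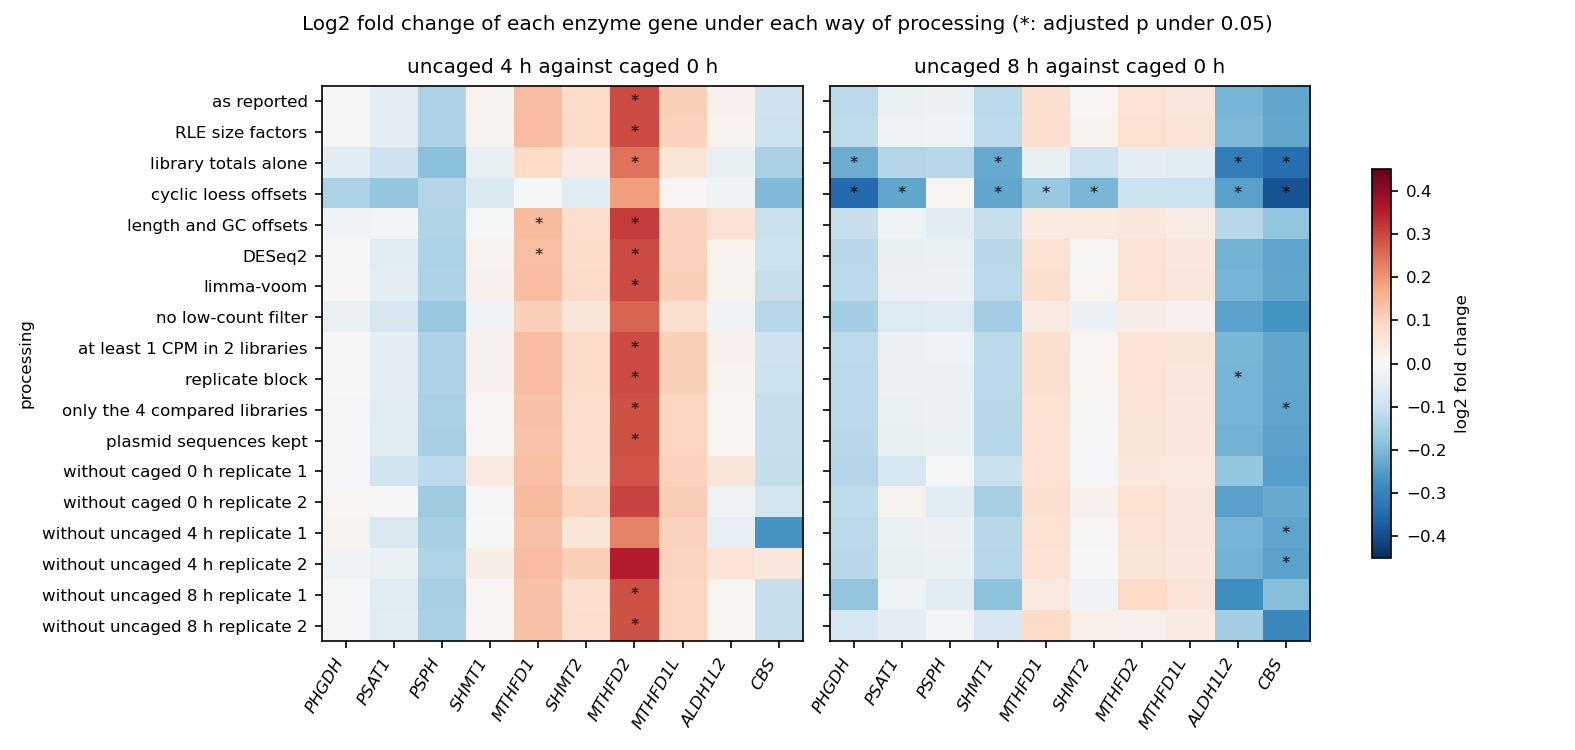
Log2 fold change of each enzyme gene (columns) at 4 h and at 8 h under each way of processing (rows), coloured from -0.45 to 0.45, with stars for an adjusted p under 0.05. At 4 h the MTHFD2 and MTHFD1L columns are positive in every row and the PSPH column is negative in every row. At 8 h the rows of library totals (4 stars) and cyclic loess offsets (7 stars) stand out as blue.

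Promoter sequence was read for 7 of the 10 genes from RefSeq windows of GRCh38.p14, 250 bases before to 50 after a start site: PHGDH, PSAT1, SHMT1, MTHFD1, MTHFD2, MTHFD1L and CBS. Both strands were searched for TGATGNAA, the C/EBP-ATF composite element that ATF4 binds, TGACGTCA, the cyclic AMP response element, and CACGTG, the E-box of MYC and MAX; the 3 motifs do not contain each other. At least 1 window held them in 4.46%, 2.25% and 8.77% of all 27305 genes with a window, and 3.62%, 1.85% and 7.26% of all windows did. Among the 7 genes MTHFD1 held an E-box, its first base at -15 from the start, and MTHFD1L held both a composite element and an E-box. MTHFD1L has 4 windows, 3 of which overlap and hold the same 2 matches, at -129 and -154 from the first start listed, at 24 and -1 from the second and at -90 and -115 from the third, while the last window holds none of the motifs. The end of the second window is found in a GENCODE 29 transcript of the gene and those of the other 3 are not; the first is printed because both matches lie before its start. The windows of the gene called at 4 h and of these 2 genes are shown with motifs in capitals, on the plus strand: MTHFD2 at chr2:74198365-74198664, MTHFD1L at chr6:150866236-150866535 and MTHFD1 at chr14:64388103-64388402.
MTHFD2: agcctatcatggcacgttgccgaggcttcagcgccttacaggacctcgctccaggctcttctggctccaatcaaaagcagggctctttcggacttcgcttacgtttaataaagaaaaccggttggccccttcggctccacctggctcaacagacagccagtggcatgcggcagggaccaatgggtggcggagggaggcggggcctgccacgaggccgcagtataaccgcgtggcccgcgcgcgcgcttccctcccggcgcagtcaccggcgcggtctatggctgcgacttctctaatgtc
MTHFD1L: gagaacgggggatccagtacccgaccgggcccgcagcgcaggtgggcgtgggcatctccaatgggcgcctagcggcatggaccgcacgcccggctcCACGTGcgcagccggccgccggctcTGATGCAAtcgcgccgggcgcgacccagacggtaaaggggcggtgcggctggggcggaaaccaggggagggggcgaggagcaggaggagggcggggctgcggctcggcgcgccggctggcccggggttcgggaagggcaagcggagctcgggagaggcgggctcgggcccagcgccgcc
MTHFD1: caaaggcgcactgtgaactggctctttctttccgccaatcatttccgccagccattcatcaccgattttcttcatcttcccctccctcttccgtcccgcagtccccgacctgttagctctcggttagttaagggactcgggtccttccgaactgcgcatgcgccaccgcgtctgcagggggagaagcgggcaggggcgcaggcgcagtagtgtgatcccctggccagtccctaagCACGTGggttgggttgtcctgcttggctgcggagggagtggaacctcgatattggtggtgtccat
The MTHFD2 window holds none of the 3 motifs, and MTHFD1L, with 2 of them, was not called at either time. A match is a string of letters and not a shown site of binding, and elements outside the windows were not searched.

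The rest of the pathway was described from 8 lists of 147 further genes, of which 136 were tested, in the same fit. Of the 136, 17 were called higher and 4 lower at 4 h, where 6.16% and 3.56% of all tested features were, and 28 higher and 14 lower at 8 h, where 14.9% and 13.2% of all features were. Without any 1 of the compared libraries the counts were 6 to 10 higher and 0 lower at 4 h, and 15 to 24 higher and 5 to 7 lower at 8 h, since each such fit has fewer samples. The 4 h calls of ATF4, ATF5, MAT2A, MYC, SLC7A1 and SLC7A5 held under every alternative, as did 13 of the named 8 h calls, among them ALDH1L1, SFXN2, SFXN3, PSTK and SPTLC2. Among 9 tested serine transporters 2 rose at 4 h, SLC38A2 by 0.35 ± 0.068 (adjusted p = 0.0188) and SLC38A1 by 0.23 ± 0.055 (adjusted p = 0.0371), both sodium-coupled carriers of small neutral amino acids at the plasma membrane. SLC38A2 stood at 98.7 and 105 CPM in the caged libraries and at 130 and 130 CPM at 4 h, with no overlap. Neither was called at 8 h, when 4 other transporters fell and none rose. They were the mitochondrial sideroflexins SFXN2 (-0.50 ± 0.070) and SFXN3 (-0.60 ± 0.11), the neutral amino acid exchanger SLC1A4 (-0.45 ± 0.092) and the glycine carrier SLC6A9 (-0.52 ± 0.16), with adjusted p-values of 0.0022, 0.0050, 0.0090 and 0.0429. The SLC6A9 call was lost under 11 of 17 alternatives, and its value was -0.27 (adjusted p = 0.247) without the first caged library and -0.73 without the second.

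Of 19 tested genes of the other folate and glycine cleavage steps none was called at 4 h. At 8 h 3 rose and 1 fell, where 14.9% of all tested features were called higher and 13.2% lower. The 3 of 19 called higher are thus near the share among all features. The rises included ALDH1L1, the cytosolic counterpart of ALDH1L2, by 0.89 ± 0.14, and MTHFS, which returns a stored folate form to the pool, by 0.77 ± 0.15. ALDH1L1 is a gene of low count here: it stood at 5.95 and 7.32 CPM in the caged libraries, 8.42 and 7.49 CPM at 4 h, and 12.2 and 12.5 CPM at 8 h, against 60.3 to 76.3 CPM for ALDH1L2. In the methionine and glutathione list, 16 tested, MAT2A, which makes S-adenosylmethionine, rose by 0.74 ± 0.059 at 4 h and 0.69 ± 0.059 at 8 h (adjusted p = 0.0010 and 0.00037). MAT2A stood at 110 and 108 CPM in the caged libraries, 179 and 185 CPM at 4 h, and 169 and 183 CPM at 8 h, with every uncaged library far above the caged ones. At 8 h CTH, the enzyme after CBS on the way to cysteine, also rose, by 0.21 ± 0.060 (adjusted p = 0.0352), and MPST fell by 0.26 on the log2 scale (SE 0.073). The CTH call was lost under 12 of 17 alternatives and the MPST call under 7.

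Of 13 tested purine synthesis genes PRPS1 rose at both times (0.23 ± 0.056 and 0.18 ± 0.056, adjusted p = 0.0378 and 0.0447). These PRPS1 calls were lost under 10 and 12 of 17 alternatives. PPAT, the first enzyme committed to the pathway, fell at 8 h by 0.25 on the log2 scale (SE 0.068). Of 19 glycolysis genes none was called at 4 h, and at 8 h ENO1, LDHA and PGAM1 rose by 0.19, 0.22 and 0.15 (SE 0.046, 0.043 and 0.042) and SLC2A3 fell by 0.65 (SE 0.17). Among all tested features 6.16% were called higher and 3.56% lower at 4 h, and 14.9% and 13.2% at 8 h. The 3 of 19 called higher at 8 h are thus near the share among all features. The 8 h values of ENO1, LDHA and PGAM1 turned negative under cyclic loess offsets (-0.13, -0.0088 and -0.10), and ENO1 was at 0.12 without the first 8 h library. The 8 h calls of ENO1, LDHA, PGAM1 and SLC2A3 held under 11, 15, 7 and 12 of 17 alternatives. Of 15 tested genes that use serine, PSTK, a kinase of the selenocysteine route, rose by 0.53 ± 0.12 at 4 h. At 8 h PSTK stood 0.79 ± 0.12 above caged. The PSTK call at 4 h (adjusted p = 0.0344) was lost under 7 of 17 alternatives, and that at 8 h held under all 17. SPTSSA, a subunit of serine palmitoyltransferase, fell by 0.32 at 4 h (SE 0.082). The SPTSSA call was lost under 11 of 17 alternatives, with values of -0.40 to -0.24 when a library was left out. At 8 h 4 of the 15 rose and 2 fell, SPTLC2, a catalytic subunit of serine palmitoyltransferase, by 0.45 (SE 0.079) being the larger fall. With 14.9% of all tested features called higher and 13.2% lower at 8 h, the 2 of 15 called lower are near the share among all features.

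ATF4 itself and several genes of its pathway rose. Of its 7 listed targets among the 10 enzymes 6 were called at neither time. Among all tested features 9.72% were called at 4 h and 28.1% at 8 h, in either direction, so that most features were not called. ATF4 stood at 611 and 582 CPM in the caged libraries, 789 and 807 CPM at 4 h, and 886 and 887 CPM at 8 h. It rose by 0.42 ± 0.042 at 4 h and 0.57 ± 0.042 at 8 h (adjusted p = 0.0019 and 0.00023). Of 36 tested genes on the list 8 were called higher and 2 lower at 4 h, and 13 higher and 4 lower at 8 h, against 6.16% higher and 3.56% lower of all tested features at 4 h and 14.9% and 13.2% at 8 h, so that the lower calls at 8 h are near the share among all features. ATF5 rose by 1.21 ± 0.13 and 1.43 ± 0.13, and DDIT3, the stress factor CHOP, was called at 8 h (0.73 ± 0.068, adjusted p = 0.00050) and rose between the times (0.54 ± 0.068, adjusted p = 0.0174).

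Not all of the ATF4 list moved with them. ASNS, the asparagine synthetase and a classic ATF4 target, differed by 0.12 ± 0.050 at 4 h (adjusted p = 0.176) and 0.11 ± 0.050 at 8 h (adjusted p = 0.131). TRIB3 differed by -0.035 ± 0.077 at 4 h and -0.11 ± 0.077 at 8 h (adjusted p = 0.811 and 0.331). The genes that fell, named after their values were seen, were DDIT4 and PCK2 at both times and GPT2 and PYCR1 at 8 h, PCK2 by 0.58 on the log2 scale (SE 0.072) at 8 h. Of the 7 enzymes listed as ATF4 targets 1, MTHFD2, was called at 4 h and none at 8 h, with medians of 0.018 and -0.025. Beside these stand 9.72% of all tested features called at 4 h and 28.1% at 8 h. The difference between the enzymes and the other ATF4 genes was not tested.

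**Figure D5:**
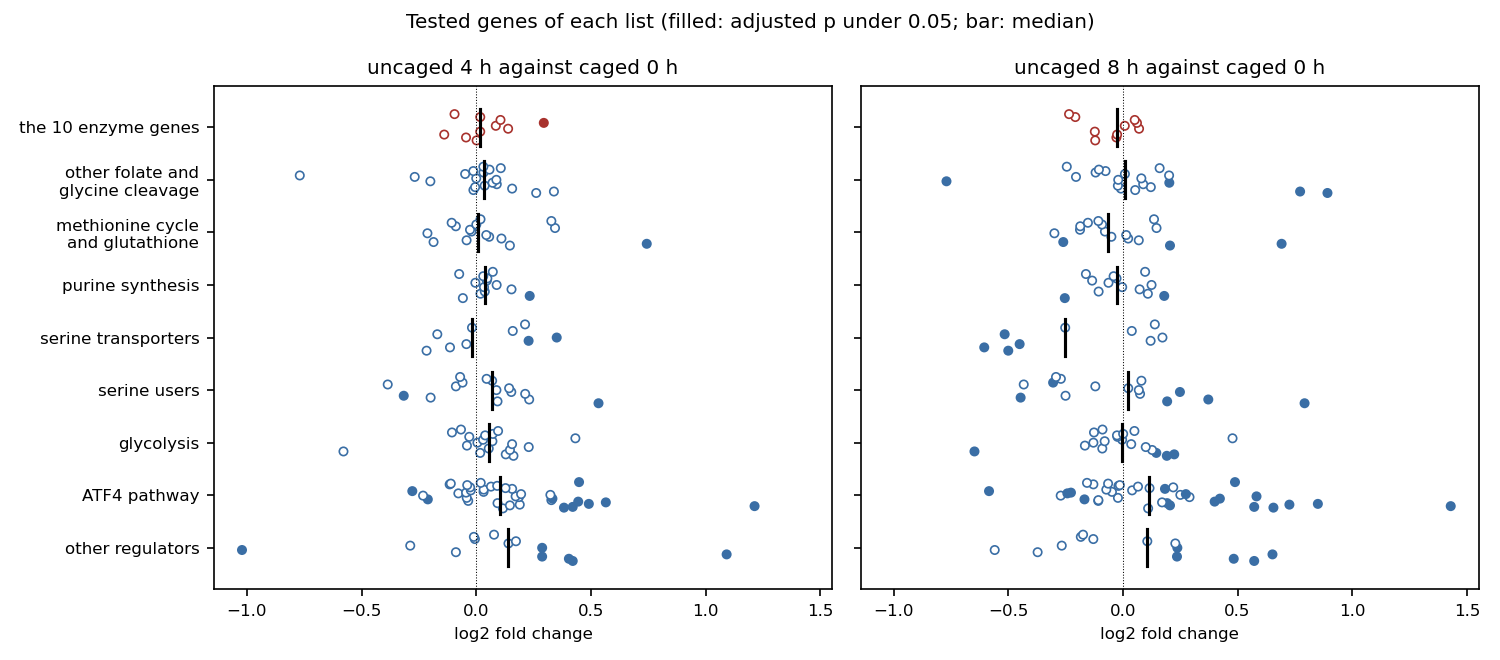
Log2 fold change at 4 h (left) and at 8 h (right) of every tested gene of the 10 enzymes (red) and of the 8 pathway lists (blue), 1 point a gene, filled where the adjusted p is under 0.05, with a bar at each list's median. The enzymes lie between -0.14 and 0.29 at 4 h and between -0.23 and 0.070 at 8 h, while single genes of the ATF4 list reach 1.21 and 1.43.

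MYC, which also binds promoters of serine and folate genes, stood at 29.05 and 26.7 CPM in the caged libraries, 63.8 and 55.0 CPM at 4 h, and 45.02 and 42.6 CPM at 8 h. It rose by 1.09 ± 0.091 at 4 h and 0.65 ± 0.094 at 8 h. Between the times it fell by 0.44 on the log2 scale (SE 0.090, adjusted p = 0.0417). The highest MYC libraries are thus those of 4 h, as for MTHFD2. The same holds for MTHFD1, SHMT2 and MTHFD1L, which were not called as reported. This likeness was picked with values seen and was not tested. Of 13 tested regulators 5 were called higher and 1 lower at 4 h, and 5 higher and none lower at 8 h, beside the same shares of all tested features (6.16% and 3.56%, then 14.9% and 13.2%).

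For each enzyme gene the nearest of 145 others, the 9 other enzymes and 136 tested pathway genes, was found by the Euclidean distance of log2 CPM, centred on each gene's mean, over the 6 libraries. MTHFD1 lay nearest to MTHFD1L (0.058), which in turn lay nearest to TYMS, the thymidylate synthase (0.057). MTHFD2 lay nearest to the transporter SLC38A2, at 0.166, and SHMT1 to GART, an enzyme of purine synthesis that uses formyltetrahydrofolate, at 0.048. PHGDH lay nearest to HK1 (0.054), SHMT2 to PGK1 (0.042), PSAT1 to EIF2AK1 (0.078), PSPH to TPI1 (0.128), ALDH1L2 to SLC7A8 (0.084) and CBS to IMPDH2 (0.174). Genes that barely vary lie near many others, and the 6 libraries share their depth and group structure, so the distances are a description of these libraries.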

How the data were processed

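The values deposited by the authors are estimated counts (expected counts), without normalisation, of 60184 features in 6 libraries, 5 of them plasmid sequences; per the submitters' processing notes Salmon 1.1.0, GRCh38 (hg38), R 3.6.1 and DESeq2 were used. The sources used here do not give the annotation release, the strand setting or the DESeq2 version. Salmon divides reads that match several transcripts, and 66.6% of tested features had an estimate that was not whole within 0.01 in some library.

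The 10 genes and all gene lists were chosen with earlier results of these data known. Estimates were rounded to whole numbers, plasmid sequences left out, features filtered with filterByExpr (minimum count 10, minimum total 15), and scaled by TMM. The model by group over all 6 libraries used the quasi-likelihood test (legacy mode) of edgeR 4.0.16, run under R 4.3.3, with Benjamini-Hochberg adjustment over the 17449 features of a comparison and a threshold of 0.05. Both uncaged groups were compared with the same caged libraries. With 3 residual and 5.43 prior degrees of freedom the common biological coefficient of variation was 6.34%. The fit was tested on simulated data before use. A count of 0 allows up to 3 counts, or 0.164 to 0.210 CPM in a single library, for counting error only. Replicates of a group were further apart than counting noise, with a chi-square of 3.65 to 4.31 per degree of freedom.

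Named genes were the 10 enzymes, near copies, TET2, MYC, ATF4, ASNS, DDIT3 and TRIB3, and from each pathway list and comparison at most 4 called genes of smallest p; from these the text gives the ones that describe a list, chosen with values seen, as was SMCR8. Some genes the rule took are not reported here. Symbols, positions and transcripts are from GENCODE 29 on GRCh38, matched by unversioned Ensembl identifier; 31-base words were counted over all transcripts of a gene, and promoter windows and their motifs were read from RefSeq (GRCh38.p14).

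The alternatives were RLE size factors, library totals, cyclic loess offsets, length and GC offsets, DESeq2 1.42.0, limma-voom (limma 3.58.1), a filter of at least 1 CPM in 2 libraries or none, a replicate block, only the 4 compared libraries, plasmid sequences kept, and each library left out; where that left 1 library in a group, its spread was taken from the other groups. CBS and CBSL were also summed, a choice made after seeing the data.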

Additional observations from a re-analysis of the deposited data

How the results depend on the processing

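PSPH, the gene of lowest count among the 10, held 624 to 854 estimated counts a library, and with 2 libraries a group the 95% confidence intervals of the 10 genes reached about 0.1 or more on the log2 scale to either side. Of 90 log2 fold changes recomputed under at least 17 alternatives, 65 kept their sign throughout. The cause of the changes below was not tested, except that fits without a library rest on fewer samples.

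With 1 higher call among the 10 genes at 4 h as reported, the number was 0 under cyclic loess offsets and with no low-count filter, 2 under length and GC offsets and DESeq2, and 0 to 1 when a library was left out. With 0 lower calls at 8 h as reported, the number was 7 under cyclic loess offsets, 4 under library totals, 1 with only the 4 compared libraries, and 0 to 1 without a library. Between 4 h and 8 h the 0 lower calls became 1, MTHFD2, under cyclic loess offsets, length and GC offsets, DESeq2 and library totals. Among all tested features the lower calls at 8 h were 1791 under cyclic loess offsets and 3899 under library totals.

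Over all tested features the calls at 4 h, 1074 higher and 622 lower, were 1770 higher under length and GC offsets, 257 lower under DESeq2, 447 and 264 with no filter, and 165 to 943 higher and 61 to 672 lower without a library. At 8 h 2602 higher and 2305 lower became 1116 lower under DESeq2, 1597 higher with no filter, 1595 and 3899 under library totals, and 1373 to 2246 higher and 902 to 2082 lower without a library. Between the times 358 higher and 212 lower became 704 and 404 under length and GC offsets, 48 and 5 with no filter, 447 lower under library totals, 137 lower with only the 4 compared libraries, and 6 to 197 higher and 0 to 77 lower without a library. The share of calls that were higher, 63.3%, 53.0% and 62.8% in the 3 comparisons, was 44.7%, 29.03% and 35.4% under library totals.

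Replicate numbers did not pair the libraries: the correlations of same-numbered deviations were 0.00081, 0.047 and -0.050. With the replicate block the calls were 709 higher and 330 lower at 4 h and 151 and 42 between the times, ALDH1L2 was the 1 enzyme gene called lower at 8 h, and MTHFD2 was called at 4 h (adjusted p = 0.0495).

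Signs reversed as follows, in log2 fold change. Under cyclic loess offsets the 4 h values were PHGDH -0.14, SHMT1 -0.063, MTHFD1 -0.0097, SHMT2 -0.050, ALDH1L2 -0.019, ASNS -0.020 and summed CBS and CBSL -0.096. The 8 h values under it were PSPH 0.0091, MTHFD1 -0.17, SHMT2 -0.21, MTHFD2 -0.098, MTHFD1L -0.098, ASNS -0.10, ENO1 -0.13, LDHA -0.0088, PGAM1 -0.10 and SARS1 -0.090, and between the times PSAT1 -0.058 and TET2 -0.025. Under library totals they were PHGDH -0.049, SHMT1 -0.033, ALDH1L2 -0.033 and the CBS sum -0.0031 at 4 h, MTHFD1 -0.034, SHMT2 -0.096, MTHFD2 -0.043 and MTHFD1L -0.053 at 8 h, and PSAT1 -0.038 between the times. Under length and GC offsets PHGDH was -0.017 and SHMT1 -0.0078 at 4 h, and PSAT1 -0.010 and TRIB3 0.0051 between the times. With no filter PHGDH was -0.031, SHMT1 -0.015 and ALDH1L2 -0.015 at 4 h and SHMT2 -0.025 at 8 h. PHGDH at 4 h was also -0.00054 under DESeq2, -0.0062 with the 4 compared libraries and -0.0076 with plasmid sequences kept. ASNS between the times was 0.00013 under RLE size factors, and CBS at 4 h 0.047 once summed with CBSL.

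Without a library the 4 h values ran from -0.019 to 0.014 for PHGDH, -0.091 to 0.0038 for PSAT1, -0.0071 to 0.043 for SHMT1, -0.036 to 0.061 for ALDH1L2 and -0.27 to 0.050 for CBS. The 8 h values ran from -0.078 to 0.017 for PSAT1 and -0.016 to 0.022 for SHMT2. Between the times they ran from -0.0051 to 0.038 for PSAT1, -0.29 to 0.029 for CBS, -0.031 to 0.024 for ASNS and -0.16 to 0.016 for TRIB3. The upper CBS value at 4 h is that without the second 4 h library, the one in which 40.5% of the CBS and CBSL sum went to CBS. The 8 h call of the sum was lost under length and GC offsets (-0.12, adjusted p = 0.0556), with no filter (-0.21, adjusted p = 0.0527) and with only the 4 compared libraries (-0.18, adjusted p = 0.0667). Of the genes named from the lists 6 of 14 called at 4 h, 13 of 28 at 8 h and 0 of 7 between the times kept their call under every alternative.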

Other observations

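Some amino acid carriers and translation regulators on the ATF4 list, beyond those that carry serine, were called, and others were not: the kinases EIF2AK1, EIF2AK2, EIF2AK3 and EIF2AK4, which phosphorylate the initiation factor upstream of ATF4, were called at neither time (-0.12 to 0.020 at 4 h and -0.16 to -0.013 at 8 h). The genes given next were picked from those called. SLC7A1, the carrier of cationic amino acids, stood at 140 and 131 CPM before light, 201 and 200 CPM in the 4 h libraries, and 150 and 155 CPM in the 8 h libraries. It rose by 0.57 ± 0.056 at 4 h (log2 fold change ± SE, edgeR adjusted p = 0.0019) and fell by 0.39 on the log2 scale from 4 h to 8 h (SE 0.056, adjusted p = 0.0236). Its 4 h libraries were the highest of the 6, as those of MTHFD2, MYC and SLC38A2 were, a likeness picked with values seen and not tested. SLC7A5, the large neutral amino acid exchanger, rose by 0.44 ± 0.054 at 4 h and 0.40 ± 0.054 at 8 h (adjusted p = 0.0041 and 0.0020). PPP1R15A, which helps to reverse the phosphorylation of the initiation factor upstream of ATF4, stood at 116 and 121 CPM before light and reached 204 and 222 CPM in the 8 h libraries, a rise of 0.85 ± 0.062 (adjusted p = 0.00023). ATF3 rose by 0.38 ± 0.057 at 4 h and 0.66 ± 0.057 at 8 h, and also from 4 h to 8 h (0.27 ± 0.056, adjusted p = 0.0426).

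Among the other regulators FLCN, the folliculin of nutrient sensing at the lysosome, rose by 0.40 ± 0.063 and 0.48 ± 0.063 at 4 h and 8 h, and MTOR by 0.29 ± 0.048 and 0.24 ± 0.048. Of the genes that use serine, SERINC1 rose at 8 h by 0.37 ± 0.083 (adjusted p = 0.0130), and SARS1, the cytosolic seryl-tRNA synthetase, by 0.19 ± 0.049 (adjusted p = 0.0205), a value that was -0.090 under cyclic loess offsets.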
